A study of Homo sapiens with 6 samples.

Results

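The genes of fatty acid synthesis, desaturation and lipid assembly were followed in cells labelled MDA-MB-231 and depleted of the long noncoding RNA Smyca. The 34 genes cover 7 pathway steps, from the supply of acetyl-CoA and NADPH to the assembly of triglyceride, with the transcription factor SREBF1 as the last. They were listed by name and pathway role, and all 34 were found among the 58302 Ensembl genes of the RNA-seq data. MDA-MB-231 is a human breast cancer cell line that is usually classed as mesenchymal or basal-like. The control group held 3 libraries of cells that carried a control shRNA, and the Smyca knockdown group held 3 libraries of cells that carried Smyca shRNA #1. All cells were grown in serum-containing medium and the Smyca hairpin was carried in the pLKO.1 vector. Only 1 Smyca hairpin was sequenced, so the loss of Smyca and other effects of this hairpin cannot be told apart.

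Fatty acids are built in the cytosol from citrate that leaves the mitochondria. ATP citrate lyase (ACLY) cuts it to acetyl-CoA, acetyl-CoA carboxylase turns this into malonyl-CoA, and fatty acid synthase (FASN) joins the units into palmitate with NADPH as the reductant. Desaturases then place double bonds, the elongation cycle adds carbon units, acyl-CoA synthetases activate free fatty acids, and acyltransferases with lipins and DGAT enzymes place the chains on glycerol. SREBP-1, the product of SREBF1, is known as the main activator of many of these genes, and proliferating cancer cells often make much of their own fatty acid.

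Total counts lay between 14999307 and 16501085 per library, and all 33 tested members had at least 100 counts in every library. Levels are given as normalized CPM, counts scaled to CPM by the TMM-adjusted library total, and fold changes are those of Smyca knockdown over control. MIR23AHG, the gene of Smyca, was at 22.2 ± 2.75 CPM (SD, n = 3) with control shRNA and at 7.69 ± 2.51 CPM with Smyca shRNA #1, with 3 of 3 knockdown libraries below every control library (log2 fold change −1.53, SE 0.26, adjusted p = 0.111 by edgeR's quasi-likelihood test). The libraries did not fully carry the markers of a mesenchymal breast line. Of its 8 markers only TWIST1 was at 0, in every library. The others were all read in every library at 6.22 CPM or more, with MSN at 341 to 767 CPM. VIM was at 148 to 305 CPM in control libraries and 71.2 to 129.7 CPM in knockdown libraries, without overlap. These 8 markers summed to 622 to 1360 CPM in the control and 675 to 1014 in the knockdown. All 7 that were tested had a lower fitted level in the knockdown. Of these, 5 had an unadjusted p under 0.05 in edgeR's test and 2, VIM and ZEB1, had no overlap. Over all tested genes 10.4% were lower at such a p and 12.4% were lower without overlap, and 46.6% had a fitted fold change above 1. Markers of other epithelia were also present, with KRT19 at 849.8 to 1957 CPM, EPCAM at 236 to 336, VIL1 at 220.5 to 501 and HNF4A at 65.4 to 194. Of the hepatocyte markers, ALB and APOA1 stayed at or near 0, and APOB, FGB, TTR and AFP were at 0. The 7 intestinal genes summed to 565 to 599.6 CPM in the control and 699 to 763 in the knockdown, mostly VIL1 and EPCAM, with CDX2 at 6.08 to 11.1 CPM and CDX1 at 0. Of the 5 intestinal genes that were tested 3 were above and 2 below control, with VIL1 higher and LGALS4 lower without overlap. The shares of all tested genes without overlap were 12.5% higher and 12.4% lower. The 4 luminal genes summed to 853 to 1960.1 and 864 to 1187 CPM, with ESR1 near 0 and PGR at 0. The 4 adipocyte markers summed to at most 0.594 CPM in any library. The part that these markers play in the results was not tested. In bulk RNA, fewer cells of a type and less RNA per cell cannot be told apart.

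The promoters of 4 members are shown as examples of matches to motifs of SREBP, the members' own regulator, and of its partner. They belong to SCD and ACLY, which were among the members with the largest difference, to MID1IP1, the only member with a full sterol regulatory element match, and to FADS3, which differed in the other direction. The sequences are RefSeq's in GRCh38.p14, 250 bases up to the start, written 5′ to 3′ on the strand of the gene. They lie at chr10:100346983-100347232 (plus strand), chr17:41918952-41919201 (minus strand), chrX:38801209-38801458 (plus strand) and chr11:61891546-61891795 (minus strand). Capitals mark a CCAAT box or TCACNCCAC on either strand, so that a match on the opposite strand is written as its reverse complement.
SCD: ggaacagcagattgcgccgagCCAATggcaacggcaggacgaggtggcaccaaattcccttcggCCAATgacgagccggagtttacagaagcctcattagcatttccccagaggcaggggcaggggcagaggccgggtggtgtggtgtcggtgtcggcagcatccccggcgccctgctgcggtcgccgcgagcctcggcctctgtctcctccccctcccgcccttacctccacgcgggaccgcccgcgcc
ACLY: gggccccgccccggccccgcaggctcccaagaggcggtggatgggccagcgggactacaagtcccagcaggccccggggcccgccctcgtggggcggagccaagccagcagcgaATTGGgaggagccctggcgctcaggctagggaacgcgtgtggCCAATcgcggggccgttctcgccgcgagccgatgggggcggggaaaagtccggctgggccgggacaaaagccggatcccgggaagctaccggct
MID1IP1: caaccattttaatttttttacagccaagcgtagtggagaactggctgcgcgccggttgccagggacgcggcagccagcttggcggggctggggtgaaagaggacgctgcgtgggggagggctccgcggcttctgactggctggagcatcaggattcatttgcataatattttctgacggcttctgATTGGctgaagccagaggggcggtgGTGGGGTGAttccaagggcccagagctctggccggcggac
FADS3: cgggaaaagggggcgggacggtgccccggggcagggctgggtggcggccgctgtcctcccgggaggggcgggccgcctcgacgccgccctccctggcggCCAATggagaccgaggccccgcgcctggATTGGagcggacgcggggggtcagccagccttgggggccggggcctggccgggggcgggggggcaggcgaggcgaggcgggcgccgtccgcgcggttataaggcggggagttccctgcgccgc
Of the 34 members, 27 had such a sequence within 500 bases of their MANE Select start, and FASN, FADS2, ACSL5, HSD17B12, DGAT1, DGAT2 and PNPLA3 did not. The element TCACNCCAC, a form of the sterol regulatory element, was found in 1 of these 27, MID1IP1, where it begins 40 bases before the start, and in 0.923% of 14628 promoters of the same length. The CCAAT box, which binds the SREBP partner NF-Y, was in 11 members and in 35.2% of all promoters. ACACA and FADS1, also among the members with the largest difference, held neither motif, and TECR, at a log2 fold change of 0.01, held 4 CCAAT boxes. In SCD, ACLY and FADS3 it occurred 2 times each, on the same strand in SCD and on both strands in the others. The GC box GGGCGG was in 25 members against 60.4% of promoters, and the E-box CACGTG was in ELOVL5 and LPIN2 against 7.97%. All motifs were searched on both strands, and no motif contains another. A match of letters is a description and not a bound site.

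In the comparison of the groups, most of the fatty acid genes were read at a higher level in the knockdown, and the difference lay in a few enzymes. Of 33 tested members, 28 had a fitted fold change above 1 and 5 below, while 46.6% of all 15075 tested genes were above. When counts were scaled by library totals alone, 4 of the 28 (ACSS2, ACACB, TECR and ACSL4) turned below 1. The median log2 fold change of the members was 0.22, between −0.76 and 1.105, and that of all tested genes was −0.04. The libraries of the groups did not overlap in 15 members, of which 14 were higher and 1, FADS3, was lower in the knockdown; over all tested genes 12.5% were higher and 12.4% lower without overlap. When counts were scaled by library totals alone, 9 members had no overlap, 7 higher and 2 lower. SLC25A1, ME1, HACD2, HACD3, HSD17B12, ACSL1 and ACSL3 then overlapped, and LPIN2 was without overlap beside FADS3. An unadjusted p under 0.05 was found for 9 higher members (ACLY, SLC25A1, ACACA, FASN, SCD, FADS1, FADS2, HACD3 and ACSL1) against 8.74% of all genes, and for FADS3 alone among the lower ones against 10.4%.

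None of the 33 members passed the study's criteria for a differentially expressed gene (DEG), a ratio past 1.5 or 0.66 with an adjusted p under 0.05, in the quasi-likelihood test of edgeR (Benjamini-Hochberg). Only 4 of all tested genes, or 0.0265%, did, and the members' adjusted p-values ran from 0.111 to 0.997. This count turned on the method and on 1 library. ACLY, ACACA, FASN, SCD, FADS1 and FADS2 were DEGs under DESeq2, which called 2.85% of all genes. The same 6 were called without control replicate 3, where 10.5% of genes were, and without the filter on low counts, where 3.01% of genes were and FADS3 was the seventh member. By ratio alone, 6 members were past 1.5 (5.54% of all genes) and FADS3 and ACSL5 were past 0.66 in the other direction (15.6%), and 25 lay between.

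**Figure D1:**
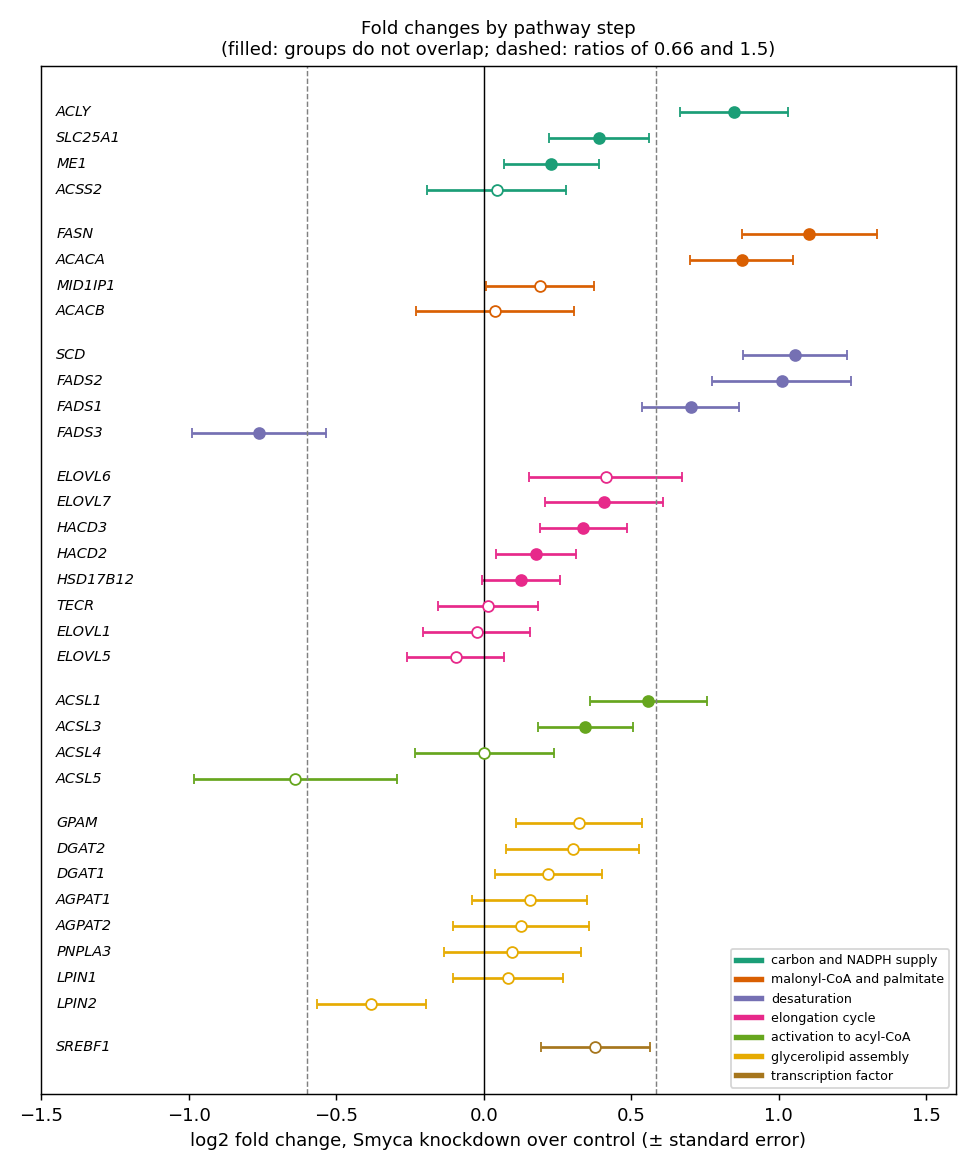
Log2 fold changes of the 33 tested genes, Smyca knockdown over control, by pathway step, with the standard error of the edgeR fit as whiskers (3 libraries per group). Filled points mark the 15 genes whose libraries do not overlap between the groups, and the dashed lines mark ratios of 0.66 and 1.5. The 6 points past the upper line are ACLY, FASN, ACACA, SCD, FADS2 and FADS1.

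The supply of carbon and NADPH comprised 4 members, all 4 with a fitted level above control (3 with total counts, where ACSS2 turned) and a median log2 fold change of 0.31. ACLY, which makes cytosolic acetyl-CoA from citrate (chromosome 17, 41866917 to 41930542, minus strand, GRCh38), was at 295, 409.7 and 291 CPM in the control libraries and at 533, 674 and 586 CPM in the knockdown libraries. The lowest knockdown library was thus above the highest control library, at a log2 fold change of 0.85 (SE 0.18, adjusted p = 0.111). SLC25A1, the carrier that exports citrate from mitochondria, was at 129, 157 and 145 CPM against 171, 226 and 168 CPM, also with no overlap (log2 fold change 0.39, SE 0.17, adjusted p = 0.253). ME1, the cytosolic malic enzyme that makes NADPH, differed less, at 19.2 to 24.6 CPM against 25.0 to 26.2, and its groups lay close together without overlapping (0.23, SE 0.16). For ACSS2, which makes acetyl-CoA from acetate in place of citrate, the groups overlapped, at 35.9 to 60.5 CPM in the control and 41.3 to 61.5 in the knockdown (0.04, SE 0.23).

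Palmitate synthesis had 4 members, and 2 of them, ACACA and FASN, were the ones without overlap. Both were higher in the knockdown, against 12.5% of all genes. ACACA, the cytosolic acetyl-CoA carboxylase that commits carbon to fatty acids (chromosome 17, 37084992 to 37406836, minus strand), was at 85.7, 119.6 and 126 CPM in the control and 201, 213 and 194 CPM in the knockdown. Every knockdown library was above every control library, and the log2 fold change was 0.88 (SE 0.17, adjusted p = 0.111). FASN (chromosome 17, 82078338 to 82098294, minus strand) was at 1015, 1712 and 1600.2 CPM in the control and at 2717, 3729.9 and 2859.85 CPM in the knockdown. It had the highest fold change of the members (1.105, SE 0.23, adjusted p = 0.111), rank 128 of 15075 tested genes, and its control replicate 1 was the lowest library. ACACB, the mitochondrial-surface carboxylase whose malonyl-CoA restrains fatty acid oxidation, was at 12.2, 16.1 and 8.005 CPM against 12.3, 12.3 and 12.7, so the knockdown libraries lay inside the control range (0.04, SE 0.27). MID1IP1, a protein that promotes the assembly of acetyl-CoA carboxylase into its active polymer, overlapped as well, at 198 to 288 CPM against 239.8 to 313 (0.19, SE 0.18).

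**Figure D2:**
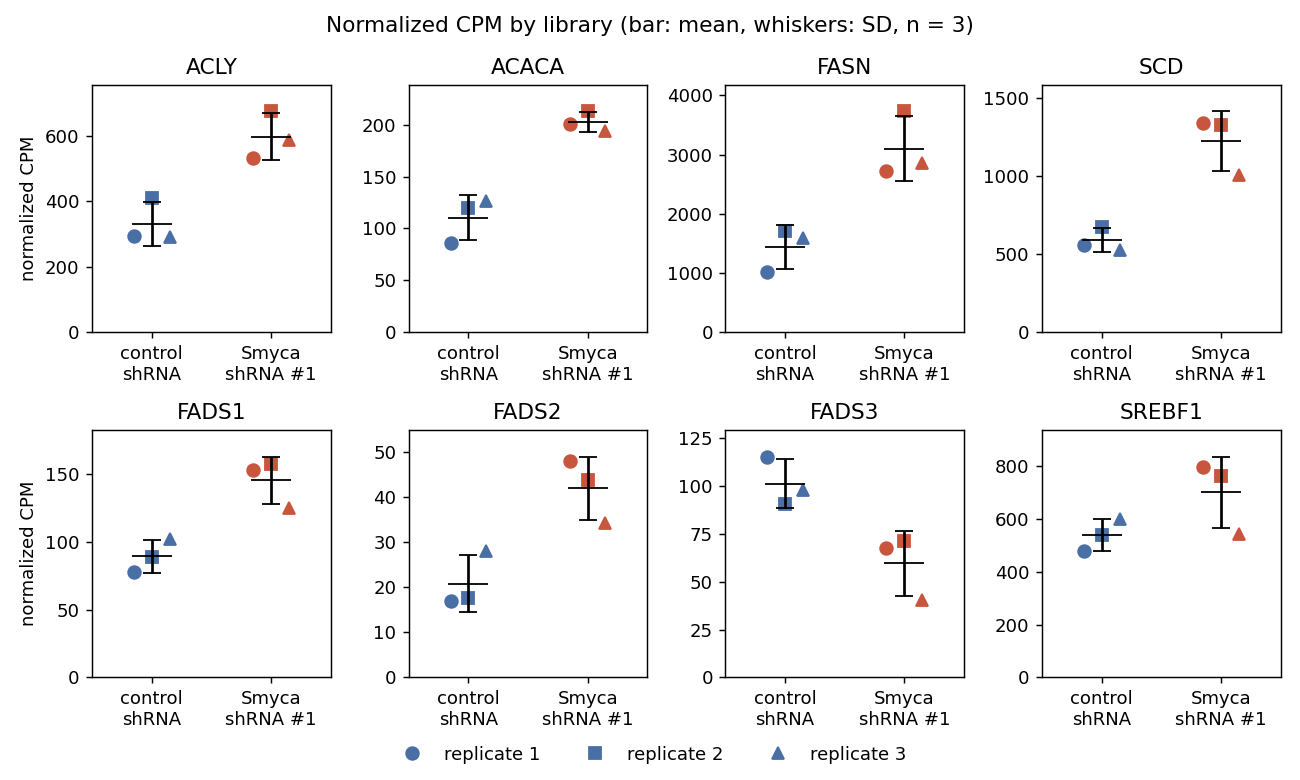
Normalized CPM in each library of 8 genes, ACLY, ACACA, FASN, SCD and the FADS genes with SREBF1, each on its own linear axis from 0. Points are libraries, bars are means and whiskers are SD (n = 3). The groups are apart in each gene but SREBF1, where knockdown replicate 3 (545 CPM) lies within the control range, and FADS3 is the gene with the lower knockdown level.

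Desaturation was the step with the largest median, a log2 fold change of 0.86 over 4 members, with 3 members above control and 1 below. SCD, the stearoyl-CoA desaturase that makes oleate and palmitoleate (chromosome 10, 100347233 to 100364826, plus strand), was at 562, 677 and 531 CPM in the control and 1344, 1329 and 1008 CPM in the knockdown. These groups were well apart (log2 fold change 1.06, SE 0.18, adjusted p = 0.111, rank 153). FADS1 and FADS2, the delta-5 and delta-6 desaturases of polyunsaturated fatty acids, and FADS3, which desaturates sphingoid bases, lie side by side within 99072 bases of chromosome 11. FADS1 was at 77.3, 88.5 and 102 CPM against 153, 157 and 125 CPM (0.70, SE 0.16, adjusted p = 0.117). FADS2 was at 16.8, 17.5 and 28.0 CPM against 47.9, 43.7 and 34.1 CPM (1.01, SE 0.24, adjusted p = 0.117). FADS3 was at 115, 90.3 and 97.6 CPM in the control and at 67.3, 71.3 and 40.1 CPM in the knockdown (−0.76, SE 0.23, adjusted p = 0.143). Its highest knockdown library was below its lowest control library, opposite to both neighbours. FADS1 (61799627 to 61829318, minus strand) overlaps FADS2 (61792980 to 61867354, plus strand), which also overlaps FEN1 on the same strand, and since the strand setting of the counting was not stated, reads of the overlapping parts cannot be assigned with certainty. FADS3 (61873519 to 61892051, minus strand) overlaps neither.

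The elongation cycle, which extends palmitate and longer chains in the endoplasmic reticulum, showed small differences. Of its 9 members 8 were tested, 6 with a fitted level above control and 2 below, at a median of 0.15, and 4 had no overlap between groups, all 4 higher, against 12.5% of all genes. With total counts ELOVL7 was the only one of these 4 without overlap. ELOVL2, an elongase of long polyunsaturated chains, had 1 count in control replicate 3 and 0 in the other libraries and was not tested. ELOVL6, which extends palmitate to stearate, was at 16.2, 30.0 and 33.6 CPM against 35.4, 39.1 and 31.8 CPM (log2 fold change 0.41, SE 0.26, adjusted p = 0.413). The groups overlapped, and control replicate 1 was far below the other 5 libraries. ELOVL7, an elongase of saturated very-long chains, was at 13.6, 14.6 and 14.1 CPM against 23.1, 17.0 and 16.04 CPM, with no overlap (0.41, SE 0.20). ELOVL5 and ELOVL1 were the lower members, at −0.09 (SE 0.16) and −0.02 (SE 0.18), both with overlapping groups.

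The other enzymes of the cycle act on every chain the elongases start. HACD3, a 3-hydroxyacyl-CoA dehydratase, was at 88.0 to 110.4 CPM in the control and 117 to 128 CPM in the knockdown, with no overlap (0.34, SE 0.15, adjusted p = 0.259). Its relative HACD2 (0.18, SE 0.14) and the ketoreductase HSD17B12 (0.13, SE 0.13) also had no overlap, at differences close to their standard errors. TECR, the reductase of the last reaction, was at 107 to 127 CPM against 93.8 to 134 CPM (0.01, SE 0.17).

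Activation of fatty acids to acyl-CoA was split among its 4 synthetases. ACSL1, known from fat and liver, was at 13.8, 15.4 and 12.7 CPM in the control and 23.7, 21.2 and 16.7 in the knockdown, with no overlap (log2 fold change 0.56, SE 0.20, adjusted p = 0.186). ACSL3, which sits on nascent lipid droplets, was at 86.4, 108.7 and 79.9 CPM against 110.7, 110.9 and 127 CPM, where control replicate 2 lay just below the knockdown libraries (0.34, SE 0.16). ACSL4, which favours arachidonate, had means of 87.4 ± 27.5 and 87.5 ± 8.20 CPM (SD, n = 3), with control replicate 3 as the lowest library at 55.8 CPM. ACSL5, a mitochondrial and endoplasmic reticulum form, was at 30.4, 20.8 and 37.4 CPM against 19.3, 10.5 and 27.1 CPM. Its groups overlapped and its standard error was the largest of the members (−0.64, SE 0.34, adjusted p = 0.344).

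Glycerolipid assembly had 0 of 8 members without overlap (1 with total counts, LPIN2), where 12.5% of all genes were higher and 12.4% lower without overlap, and a median log2 fold change of 0.14. GPAM, the mitochondrial acyltransferase that starts the path, was at 12.2, 13.0 and 16.01 CPM against 14.98, 15.5 and 21.1 CPM (0.32, SE 0.22). AGPAT1 (0.16, SE 0.19) and AGPAT2 (0.13, SE 0.23), which add the second acyl chain, had overlapping groups. LPIN1 and LPIN2 are phosphatidate phosphatases, which make diacylglycerol. LPIN2 was the only lower member of the step, at 49.7, 44.7 and 35.2 CPM against 35.0, 27.6 and 36.8 CPM (−0.38, SE 0.19, adjusted p = 0.303), and LPIN1 had a fold change of 0.08 (SE 0.19). DGAT1 and DGAT2, which close the triglyceride, had fold changes of 0.22 (SE 0.18) and 0.30 (SE 0.23) on the log2 scale, and in both knockdown replicate 3 was the lowest of the 6 libraries. PNPLA3, a lipid droplet protein and SREBP-1 target, was near 8 CPM in the control, at 7.03 to 9.29, and at 7.39 to 9.59 in the knockdown (0.10, SE 0.23).

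The sum over the members was carried by few genes. All 34 together were at 4781 ± 521 CPM in control libraries (SD, n = 3) and at 7798 ± 863 CPM in knockdown libraries, or 0.490 ± 0.068% and 0.760 ± 0.083% of the raw counts. FASN, SCD, SREBF1 and ACLY made up 60.4 ± 4.23% of the members' CPM in control libraries and 72.0 ± 1.94% in knockdown libraries. FASN alone went from 29.8 ± 5.05% to 39.7 ± 3.52%, while SREBF1 took 11.3 ± 1.03% and 8.97 ± 1.40%. The other members summed to 1876, 1920 and 1836 CPM in the control libraries and to 2204, 2249.9 and 2057.5 CPM in the knockdown libraries. This remainder still held ACACA, FADS1 and FADS2, with mean levels of 110, 89.2 and 20.8 CPM in the control and 203, 145 and 41.9 CPM in the knockdown. Each knockdown library was above every control library in the remainder, but not with total counts. There knockdown replicate 3 (1974 CPM) was below control replicate 2 (2005 CPM).

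**Figure D3:**
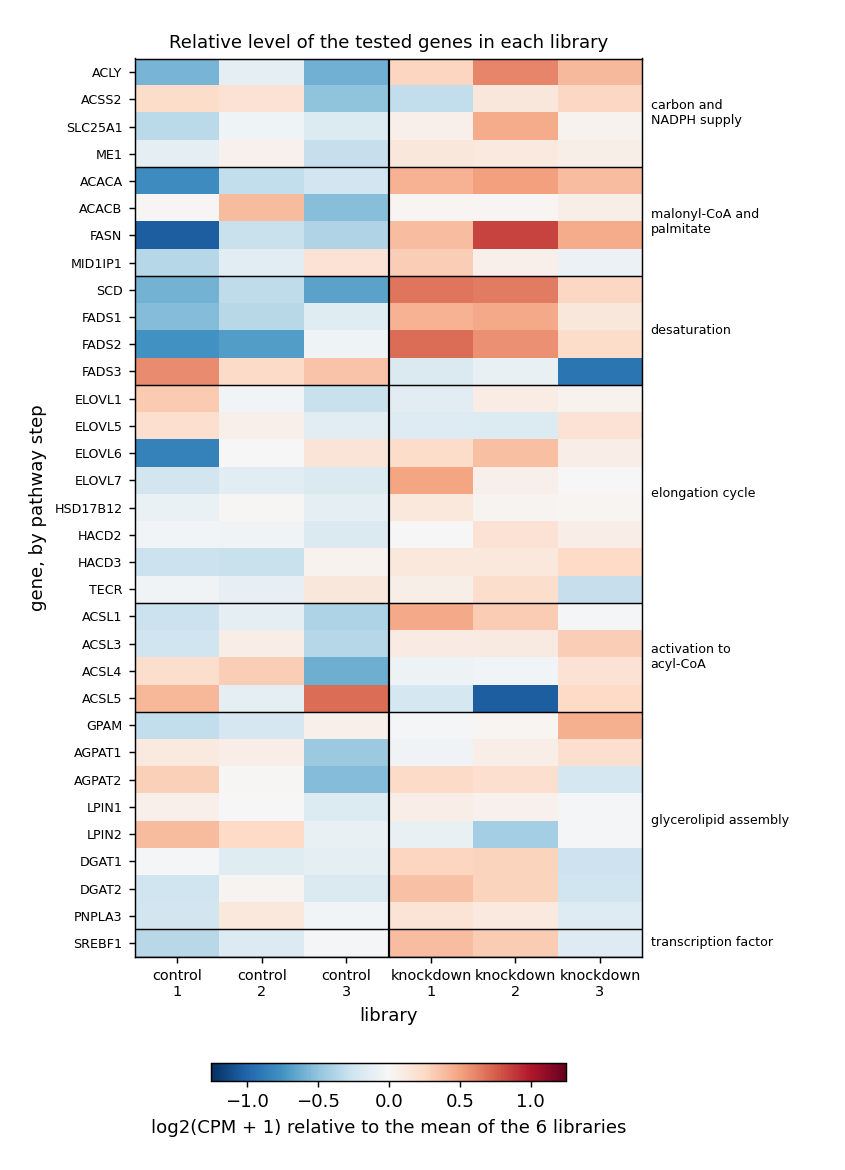
Level of the 33 tested genes in each of the 6 libraries, as log2(CPM + 1) minus the mean over the libraries, with genes in rows by pathway step. Knockdown columns are higher for ACLY, ACACA, FASN, SCD, FADS1 and FADS2, lower for FADS3, and mixed with the control columns over most of glycerolipid assembly, where no gene is without overlap.

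Levels of different genes were compared per kilobase of the MANE Select transcript, in CPM per kilobase. FASN was first in both groups, with a control mean of 170.4 and a knockdown mean of 367. SCD at 112.5, SREBF1 at 110.0, TECR at 101 and AGPAT2 at 98.5 CPM per kilobase followed in the control, and the libraries of these neighbours overlapped. In the knockdown SCD was at 234, SREBF1 at 143 and ACLY at 139 CPM per kilobase. ACLY stood at 77.3 in the control, below SLC25A1 at 92.9 CPM per kilobase. ACACA was much lower than its neighbours in the pathway, at 11.03 and 20.2, and ACACB was the lowest tested member at 1.29 and 1.33 CPM per kilobase. FADS2 at 6.73 and 13.6 stood below FADS1 at 20.5 and 33.3 CPM per kilobase. FADS3 was above both of them in the control, at 56.5, and was level with FADS1 in the knockdown, at 33.3 CPM per kilobase.

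**Figure D4:**
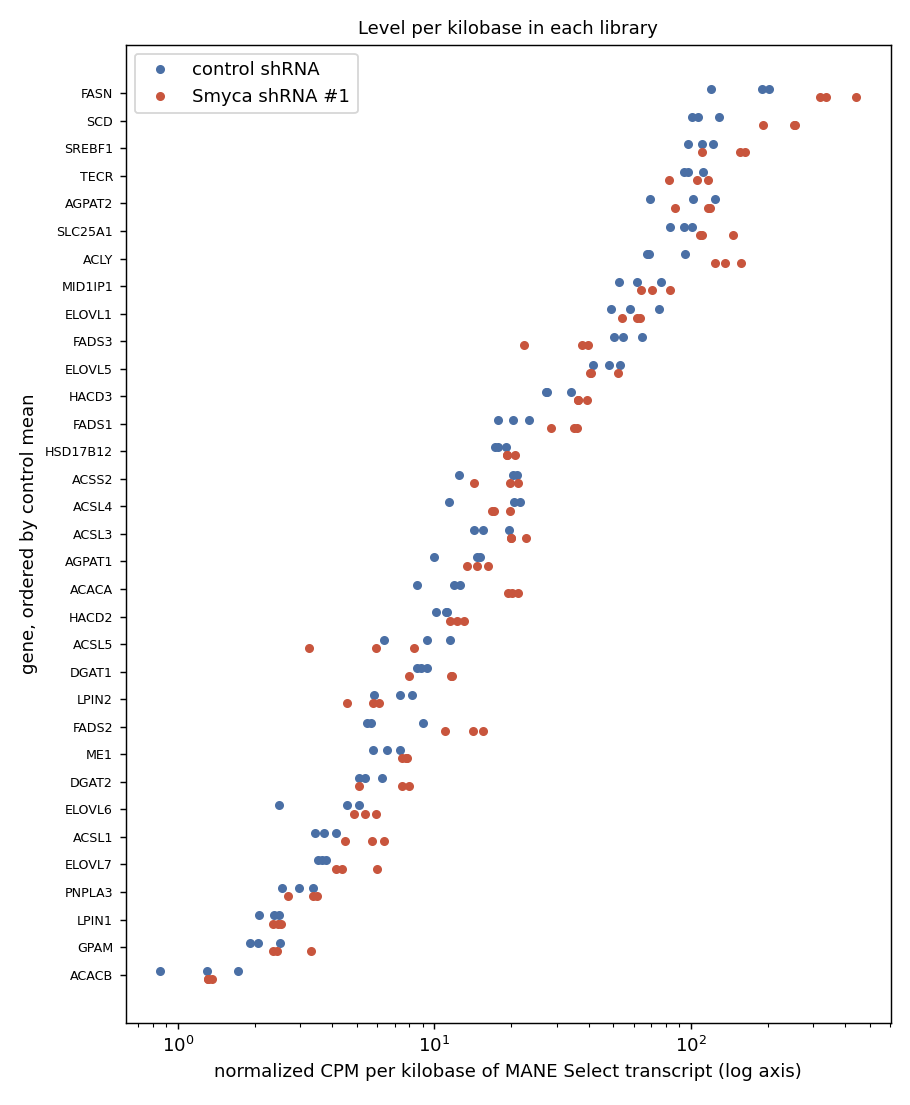
Normalized CPM per kilobase of MANE Select transcript, on a log axis, for the 33 tested genes in order of the control mean. Each point is a library (3 control, 3 knockdown). The genes span from ACACB, at 1.29 in the control, to FASN, at 170.4.

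SREBF1, the gene of the SREBP-1 transcription factor, was at 478, 541 and 599 CPM in the control and 796, 762 and 545 CPM in the knockdown (log2 fold change 0.38, SE 0.18, adjusted p = 0.302). Knockdown replicate 3 was inside the control range. It was also the lowest knockdown library of SCD, FADS1, FADS2, ELOVL6, ELOVL7 and ACSL1, and of ACACA, SLC25A1, ME1, MID1IP1 and HSD17B12. The same held for TECR, AGPAT2, LPIN1, DGAT1, DGAT2 and PNPLA3, and for FADS3, which was lower in the knockdown. In the other tested members, FASN and ACLY among them, another knockdown library was the lowest. SREBF1 overlaps RAI1 on the opposite strand. In all, 12 members overlap another gene with at least 10 mean counts, 4 of them on the same strand, which leaves some of their reads uncertain.

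Other genes of the same pathways gave a more even split. Of 56 such genes 48 were tested, 25 with a fitted level above control and 23 below, at a median log2 fold change of 0.02, and 0 passed the criteria of a DEG in edgeR's test. An unadjusted p under 0.05 was found for 9 higher and 6 lower ones, and 8 higher and 5 lower ones had no overlap (5 and 6 with total counts). Over all genes the shares were 8.74% and 10.4% for the p, and 12.5% and 12.4% for no overlap. SREBF2, the gene of the sterol regulator SREBP-2, was at 299.7, 280.3 and 224 CPM against 445, 374 and 305 CPM, with the highest control library just below the lowest knockdown library (0.48, SE 0.19, adjusted p = 0.212), a separation that was lost with total counts, at 294 CPM in control replicate 1 and 292 in knockdown replicate 3. Among the 11 regulators of SREBP and its partners, 7 were above and 4 below.

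The genes without overlap and with a ratio past 1.5 or 0.66 were 4 higher and 2 lower ones. PGD, an NADPH-making enzyme of the pentose phosphate pathway, was at 153 ± 34.0 CPM against 273 ± 21.3 CPM (SD, n = 3) (log2 fold change 0.84, SE 0.18, adjusted p = 0.111). LPCAT3, which places polyunsaturated chains on lysophospholipids, was at 14.8 ± 2.48 and 25.4 ± 4.35 CPM (0.78, SE 0.21, adjusted p = 0.127). AGPAT3, a relative of AGPAT1, had a log2 fold change of 0.69 (SE 0.17, adjusted p = 0.122), and PPARGC1B, a coactivator of SREBP-1, one of 0.68 (SE 0.22, adjusted p = 0.168). The lower genes were GPAT3 (−0.82, SE 0.29) and LPIN3 (−0.99, SE 0.28), which act in the same assembly step as GPAM and LPIN2. Of 9 genes of lipid storage and binding 3 were above and 6 below, at a median of −0.24, and of 7 genes of mitochondrial fatty acid synthesis 4 were above and 3 below.

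Within a library, the ratio of 2 genes does not depend on the scaling of the library, and 10 such ratios, 9 between members and 1 of SREBF1 to SREBF2, were compared by a two-sided exact permutation test, whose smallest p with 3 against 3 libraries is 0.1. The ratio of ACACA to ACACB counts was 7.05, 7.42 and 15.8 in the control and 16.4, 17.3 and 15.2 in the knockdown. Control replicate 3 was level with the knockdown libraries (difference 0.80 on the log2 scale, exact permutation p = 0.2, adjusted p = 0.4). LPIN1 to LPIN2 was the only ratio with no overlap, at 0.272, 0.289 and 0.322 against 0.393, 0.486 and 0.346 (difference 0.46, exact permutation p = 0.1, adjusted p = 0.4). FADS1 to FADS2 was 4.59, 5.05 and 3.63 against 3.20, 3.60 and 3.66, with a difference of −0.33 (exact permutation p = 0.2, adjusted p = 0.4). The FASN to ACACA ratio differed by 0.23, that of SCD to FADS2 by 0.02 and that of SREBF1 to SREBF2 by −0.11, all with overlap.

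The control libraries were not alike in another respect. A list of 15 hypoxia-inducible genes, which shares PLIN2 with the storage list and is led by SLC2A1, VEGFA and NDRG1, had 15 of 15 genes with a lower fitted level in the knockdown, at a median log2 fold change of −1.35, and their sum was 5887 CPM in the highest control library and 1765 in control replicate 3, against 1707 to 2130 in the knockdown. Relative to the mean of the 6 libraries, the list stood at 1.57, 0.83 and −0.36 in the control and −0.75, −0.85 and −0.43 in the knockdown, on the log2(CPM + 1) scale. The 12 members of the first 3 steps stood at −0.35, −0.11 and −0.25 in the control and 0.25, 0.37 and 0.11 in the knockdown. SLC2A1 had the highest level of the list in every library, at 1102 CPM in control replicate 3 and 1102 to 1610 CPM in the knockdown. By the relative level, control replicate 3 was above each knockdown library. Like the other control libraries, control replicate 3 was below all 3 knockdown libraries in ACLY, ACACA, FASN, SCD, FADS1 and FADS2. These genes were singled out for groups without overlap, so their order follows from that choice. The part that the difference in hypoxia genes plays in the members' levels was not tested. The 8 assembly members stood at 0.01, 0.02 and −0.19 against 0.12, 0.08 and −0.03, where the groups overlapped.

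**Figure D5:**
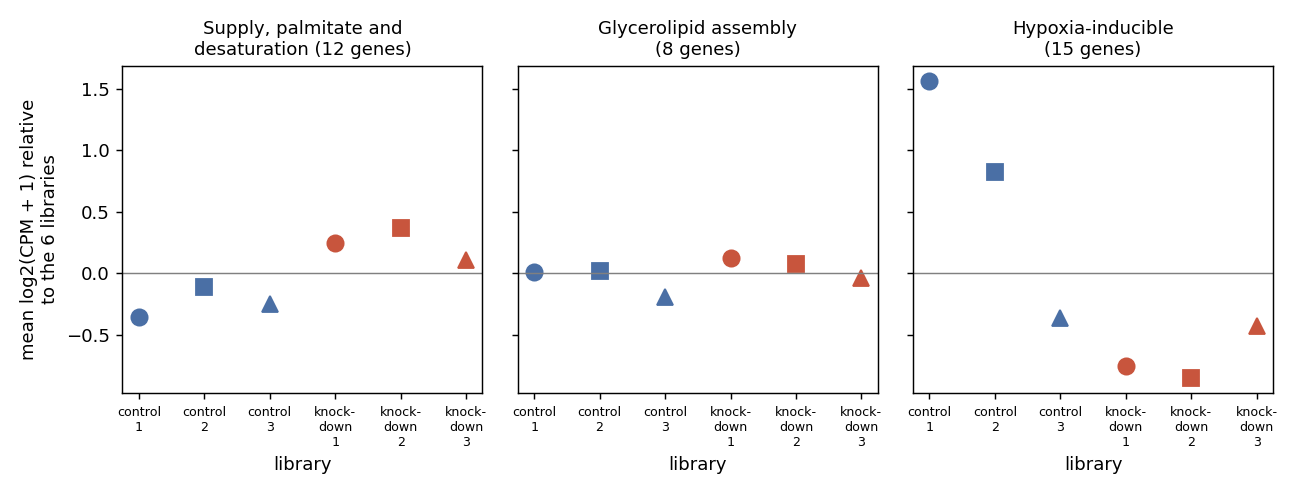
Mean log2(CPM + 1) of 3 gene lists in each library, relative to the mean over the 6 libraries: the 12 genes of supply, palmitate synthesis and desaturation, the 8 genes of glycerolipid assembly, and 15 hypoxia-inducible genes. The first list is below 0 in the 3 control libraries and above 0 in the 3 knockdown libraries. The third is at 1.57 and 0.83 in control replicates 1 and 2 and below 0 in control replicate 3.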

How the data were processed

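RNA-seq of 3 control and 3 Smyca knockdown libraries was used, grouped by the labels, which give no batch. After removal of rRNA the authors made strand-specific libraries, read 150-base paired ends on a HiSeq4000, aligned them to GRCh38 by TopHat v2.0.12 and ran HTSeq for gene counts; the annotation release and strand setting were not stated in the sources used here. The deposited read counts per Ensembl gene were used for every result. The deposited FPKM, made by the authors from counts, gene length and library total, served as a check: in control replicate 2 this column came from other reads than its counts, with 3357 genes at 0 counts but FPKM above 0. Its values gave whole reads (100% within 0.1 of a whole number, 16759253 reads), used as an alternative. The gene lengths behind the FPKM were shorter than the MANE Select transcript in 31 of 34 members, so MANE Select lengths (GENCODE release 44) were used.

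Counts of 15075 genes that passed filterByExpr were fitted with edgeR 4.0.16 in R 4.3.3 (TMM, quasi-likelihood test, group as the only term) with Benjamini-Hochberg adjustment over all of them. The biological coefficient of variation was 25.2%. Two-sided exact permutation tests used log2 ratios with 0.5 added to each count. The labels do not state whether replicates were separate cultures, though the study calls them biological repeats, and p-values measure only the spread between these libraries. The members, lists and tests were chosen with earlier results of these data known. Every member was named, with SREBF2 and the other pathway genes without overlap and with a ratio past 1.5 or 0.66, and up to 3 genes of each marker list by mean count, beside markers at or near 0, which were added after their values were seen. Alternatives were DESeq2 1.42.0 (Wald test), RLE size factors, total counts, no low-count filter, at least 10 counts in every library, a count offset of 1 in the ratios, the reads behind the FPKM of control replicate 2, the replicate number as a block, and each replicate left out. Total counts were also tried for the other pathway genes and for the members without FASN, SCD, SREBF1 and ACLY, a choice made after seeing the data. The code was tested on simulated data. The result of 1 marker gene is not reported here.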

Additional observations from a re-analysis of the deposited data

Results flagged for a closer look

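A signal outside the counts was found in the FPKM column of control replicate 2. For 30 of the 33 tested members, the reads behind this column lay nearer the counts of control replicate 3 than the counts deposited beside it. The columns differed by at least 1.5-fold in 6 members. For FADS2 the column gave 503 reads against 285 counts, and control replicate 3 had 438 counts. For ACSL4 it gave 818 reads against 1724 counts, with 871 counts in control replicate 3. FASN had 28026 reads and 27830 counts. Scaled to the total of each column these were 1672 and 1789 CPM, with 1666 CPM in control replicate 3. Which column belongs to control replicate 2 was not tested.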

How the results depend on the processing

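All 33 tested members had at least 100 counts in every library. The sign of the fold change was kept in 24 of 33 tested members under all 13 alternatives, and in 9 it turned in at least 1. The 6 members ACLY, ACACA, FASN, SCD, FADS1 and FADS2 kept non-overlapping groups under RLE size factors, total counts and the reads behind the FPKM of control replicate 2. The filters on counts left the members' levels as they were, so they could not change the overlap. The count of DEGs among the members was 0 in the main analysis, 6 under DESeq2, 7 with no filter on low counts and from 0 to 6 with a replicate left out, with 6 only without control replicate 3; the cause was not tested. The adjusted p of SCD thereby ran from 4.83e-05 to 0.440 and that of FASN from 0.000800 to 0.440. The members with an unadjusted p under 0.05 and a lower level were 2 without the filter, with the reads behind the FPKM column, with the replicate block and with total counts, and 1 to 2 with a replicate left out. Groups without overlap numbered 9 with total counts in place of 15, with 7 higher and 2 lower members in place of 14 and 1. Total counts moved the median log2 fold change of all genes from −0.036 to −0.106. Smyca was at −1.49 under DESeq2 and −1.49 without the filter, both past the threshold (adjusted p = 4.83e-05 and 6.46e-04), and at −1.81 to −1.33 with a replicate left out, past the threshold only without control replicate 3 (−1.52, adjusted p = 0.0152).

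The members that turned were near 0. With a replicate left out, the log2 fold change ranged from −0.151 to 0.154 for ELOVL1, −0.233 to 0.168 for ACSL4, −0.0937 to 0.156 for TECR, −0.182 to 0.304 for ACACB, −0.154 to 0.205 for ACSS2, −0.0090 to 0.256 for AGPAT1, −0.0665 to 0.325 for AGPAT2 and −0.0030 to 0.213 for PNPLA3. ELOVL1 was at 0.0151 under DESeq2, 0.0092 without the filter and 0.0447 with the FPKM reads, where ELOVL5 was at 0.0207 and TECR at −0.0873. With at least 10 counts in every library ACSL4 was at −0.0151 and TECR at −0.0020. With total counts ACSL4 was at −0.0655, TECR at −0.0554, ACACB at −0.0314 and ACSS2 at −0.0256. With a replicate left out, the log2 ratios ranged from −0.197 to 0.0166 for DGAT1 to DGAT2, −0.0066 to 0.825 for ELOVL6 to ELOVL1, −0.280 to 0.0915 for SREBF1 to SREBF2 and −0.291 to 0.223 for SCD to FADS2.

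The replicate numbers were not taken as pairs. Same-numbered libraries correlated at 0.0607, 0.0842 and −0.0139 in their deviations from the group means, and not every library correlated best with its own number. With the replicate block 0 genes were DEGs in place of 4, 0 members changed sign or call, and Smyca was at −1.56.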
